A study of Mus musculus with 4 samples.

Results

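Matrix metalloproteinases (MMPs) and ADAMTS proteases cut the collagens and proteoglycans that surround skeletal cells, and the tissue inhibitors of metalloproteinases (TIMPs) block them. In the fetal limb these enzymes are known for opening cartilage matrix to vessels and for clearing matrix around joints, tendons and muscle, and MMP9 and MMP13 are the textbook proteases of the cartilage-to-bone border, made there by osteoclasts and by late hypertrophic and bone-forming cells. The genes described here are 10, taken by symbol from the 32288 features of the count matrices: the gelatinases Mmp2 and Mmp9, the collagenase Mmp13, the membrane-bound Mmp14, the proteoglycan-cutting Adamts1, Adamts5 and Adamts9, and the inhibitors Timp1, Timp2 and Timp3. All 10 had at least 1 unique molecular identifier (UMI, 1 captured transcript) in the cells analysed, but Mmp13 had only 10, so it entered no test.

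The cells came from whole hindlimbs of mouse embryos at E14.5 and were read as 4 droplet libraries. Every embryo carried Gli1CreER/+ (Cre made from the Gli1 locus), R26LSL-tdTom/+ (a red reporter, tdT) and TigreTRE-p21/+ (the cell-cycle inhibitor p21, gene Cdkn1a). Embryos that also had Col2a1-rtTA, which turns p21 on in cartilage under doxycycline, were Pan-Cart-p21MOE, called p21 below, and embryos lacking it were controls. All dams received doxycycline at 1 mg/ml from E12.5 and tamoxifen at 120 µg/g at E13.5, so the controls had both drugs and all other alleles. Cells were sorted into tdT+ (the Gli1 lineage) and tdT-, and each sort of each of 2 collections held p21 and control cells of opposite sex, which allowed the 2 to be separated by sex genes. Per the study's methods, collection 1 paired p21 males with control females, collection 2 paired a p21 female with control males, and only 1 p21 female is listed, while the study elsewhere describes pooled embryos for each sample, so whether the p21 sample of collection 2 is 1 embryo or a pool is uncertain. The p21 and control cells of the 4 libraries gave 8 pseudobulks, sums of UMIs over the cells of 1 library and 1 condition, 4 tdT+ and 4 tdT-, 4 p21 and 4 control. A tdT+ and a tdT- pseudobulk of the same collection and condition share their embryos, so the 4 p21 and the 4 control pseudobulks each stand for 2 embryo samples. The p21 and control pseudobulks of 1 library share their sort and droplet run. The 4 tdT+ pseudobulks therefore stand for 2 libraries, and so do the 4 tdT- pseudobulks.

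Of 18955 barcodes, 2767 cells passed the filters with a clear sex, 1779 of them p21 and 988 control. The pseudobulks held 98 to 784 cells and 2293497 to 19432720 UMIs. Many barcodes that passed the filters on counts had no clear sex, so their condition was unknown and they were left out. These were 177 of 706 (tdT+) and 348 of 772 (tdT-) in collection 1. In collection 2 they were 455 of 1483 (tdT+) and 2745 of 3912 (tdT-). In tdT- chondrocytes the shared 3′ element of the p21 cassette (WPRE) stood at 896 and 1304 CPM (UMIs of a gene scaled to the total of the same cells) in p21 pseudobulks and at 90.1 and 59.4 CPM in controls, and the tdT feature was at 14.7 to 20.6 CPM in tdT+ and 0.978 to 2.18 CPM in tdT- pseudobulks. Cdkn1a itself overlapped between the groups in chondrocytes, at 49.0 to 72.3 CPM with p21 and 19.4 to 95.2 CPM in controls. Clusters were named "-like" from marker genes, with the 10 genes and related proteases kept out of the clustering. The hypertrophic-like cluster had 83 cells with 7 of 7 markers found, of which 12 with endothelial markers were set aside and 71 are used for its levels, the tenocyte-like cluster 89 cells with 7 of 7, and the perichondrium-like (perichondrium or groove of Ranvier) cluster 87 cells with 3 of 5. The 2 osteoprogenitor-like clusters had 263 and 50 cells with 5 and 7 of 8 markers found. The tenocyte-like cluster drew 80.9% of its cells from 1 library, the tdT- library of collection 2. Only there did it reach 10 cells in a pseudobulk (58 p21 and 14 control cells). Each pair of tenocyte-like values below is therefore from that library alone. Cluster 16, with low UMIs per cell, drew 97.5% of its 79 cells from the tdT+ library of collection 2. The chondrocyte class joins the resting-like, chondrocyte-like, proliferative-like and hypertrophic-like clusters. The 1937 cells outside it, called non-chondrocyte cells, are not all free of cartilage genes: 9 of their clusters (716 cells, clusters 4, 6, 10 and 16 among them) had summed chondrocyte markers of 9562 to 22412 CPM, against 15398 CPM in the resting-like cluster, and the 12 cells set aside from the hypertrophic-like cluster are among them too.

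Promoter windows of 250 bases before the transcription start were taken from RefSeq (GRCm38.p6), which held 7 of the 10 genes (Mmp2, Mmp9 and Adamts5 were not among them). 2 motifs were searched on both strands, the AP-1 motif TGANTCA and the Runx motif TGTGGT, because these are the sites through which the collagenase promoters are classically described. Of 32851 promoter windows of this length, 6.75% held the AP-1 letters and 14.05% held the Runx letters. The windows of Mmp13 and Mmp14 held a match (capitals), and those of Adamts1, Adamts9, Timp1, Timp2 and Timp3 held none. The Mmp13 window on the plus strand, chr9:7272264-7272513, held 1 match of each, and the Mmp14 window on the plus strand, chr14:54431348-54431597, held 1 Runx match.
Mmp13: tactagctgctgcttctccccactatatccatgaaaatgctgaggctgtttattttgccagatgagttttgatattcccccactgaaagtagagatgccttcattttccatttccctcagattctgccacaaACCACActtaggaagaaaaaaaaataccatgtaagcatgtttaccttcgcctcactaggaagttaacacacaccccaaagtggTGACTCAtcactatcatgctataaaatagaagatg
Mmp14: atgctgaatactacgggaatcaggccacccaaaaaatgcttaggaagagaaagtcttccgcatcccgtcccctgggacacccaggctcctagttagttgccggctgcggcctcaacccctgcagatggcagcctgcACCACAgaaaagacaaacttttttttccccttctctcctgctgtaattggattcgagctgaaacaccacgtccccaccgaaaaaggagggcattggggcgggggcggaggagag
The AP-1 match of Mmp13 began 35 bases before the start and its Runx match 118 bases before it, while the Runx match of Mmp14 began 114 bases before the start. These are letter matches only, and no binding was measured.

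Mmp9 was highest in osteoprogenitor-like cells. Its level, in CPM over the cells of a class in 1 pseudobulk of at least 10 cells, ran from 28.4 through a median of 39.6 to 80.1 in the larger osteoprogenitor-like cluster (8 pseudobulks) and from 15.7 through 29.5 to 34.3 in cluster 8, whose leading genes are Mgst3 and Alpl (6 pseudobulks). The next class, perichondrium-like, lay at 4.73 to 10.8 CPM and did not overlap with cluster 8. The larger osteoprogenitor-like cluster also had the higher sum of perichondrium markers, 1810 CPM against 1043 CPM in the perichondrium-like cluster. When cells were chosen by marker UMIs in place of clusters, Mmp9 was at 20.2 CPM in cells with Sp7 and 18.8 CPM in cells with both Aspn and Thbs2, markers of the perichondrium, against 8.08 CPM over all cells. The joint interzone-like cells (5 pseudobulks) and the hypertrophic-like cells (4 pseudobulks) had no Mmp9 UMI in any pseudobulk of that size. Of 571 Mmp9 UMIs in 291 cells, 63.7% lay in the osteoprogenitor-like cells, which are 11.3% of all cells, and another 13.1% lay in cluster 8. After each cell was thinned to 3000 UMIs, 14.52% of osteoprogenitor-like cells had an Mmp9 UMI (45 of 310, exact binomial 95% interval 10.8 to 18.9) against 0.244% of the chondrocyte class (2 of 818, 0.0296 to 0.880). The median depth of the 2 classes was 25382.5 and 25814.5 UMIs, and the unthinned shares were 49.4% and 1.59%. Shares by class are over cells of at least 3000 UMIs, and such intervals cover counting error only.

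UMIs of bone-lineage genes were found in a larger share of the cells with an Mmp9 UMI than of the others. Runx2, the master factor of bone formation, was found in 89.3% of the 291 cells with Mmp9 and in 53.4% of the other 2476 cells, Sp7, which acts after it, in 42.3% and 11.2%, and the phosphatase Alpl in 72.2% and 16.2%. With each cell thinned to 3000 UMIs, which left 63 cells with Mmp9 and 2603 without, the shares were 82.5% and 30.9% for Runx2, 9.52% and 2.92% for Sp7 and 41.3% and 7.88% for Alpl. Of the genes used by osteoclasts, Ctsk, the collagen-cutting cathepsin that osteoclasts make in bulk, was found in 62.5% and 36.3% (thinned 17.5% and 10.2%), and Acp5 in 10.7% and 5.45% (thinned 1.59% and 0.768%). The fusion genes Ocstamp and Dcstamp were at 0 in the cells with Mmp9, but were found in only 5 and 8 of the other cells (0.202% and 0.323%). Atp6v0d2 was found in 2 cells with Mmp9 (0.687%, others 0.0404%), from 3 UMIs in all. Calcr was found in 4 (1.37%, others 1.74%) and Oscar in 6 (2.06%, others 1.09%). The leukocyte gene Ptprc was found in 1 (0.344%, others 0.485%). The median depth was 27570 UMIs in cells with Mmp9 and 21750 in the others. A UMI of free RNA counts as a find here, its share was not estimated, and these shares are a description with no test. Over 20 clusters, the genes most correlated with Mmp9 on log2(CPM + 1) were Ptpn13 (Pearson r = 0.83), 2610027K06Rik (r = 0.83) and Tnfsf11 (r = 0.82), the ligand that drives osteoclast formation. This is a description over clusters that share libraries.

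Mmp13 was barely detected. Its 10 UMIs fell in 8 cells, 9 of them UMIs of the chondrocyte class, and all 18955 barcodes together, those left out by the filters included, held 12 Mmp13 UMIs. The 71 hypertrophic-like cells had none among 1957408 UMIs, which allows a level of up to 1.53 CPM (3 counts of the total). No pseudobulk of collection 1 had an Mmp13 UMI.

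Timp1 was highest in hypertrophic-like cells. Their 4 pseudobulks lay at 167 and 177 CPM with p21 and at 217 and 279 CPM in controls, and the lowest of these was above the highest of every other class in the order. Proliferative-like chondrocytes came next, at 55.1 to 103 CPM over 7 pseudobulks, and the remaining classes reached at most 91.7 CPM. In the 76 cells chosen by at least 2 Col10a1 UMIs, Timp1 was at 116 CPM. The hypertrophic-like cluster pooled to 204 CPM and all cells to 42.4 CPM, so the distance to other classes depended on how the cells were chosen. After thinning, 34.8% of hypertrophic-like cells (23 of 66, 23.5 to 47.6) had a Timp1 UMI against 12.2% of the whole chondrocyte class (100 of 818, 10.1 to 14.7). The smaller osteoprogenitor-like cluster, of which only 1 pseudobulk had 10 cells, stood at 158 CPM in that pseudobulk. Over the clusters, Timp1 followed Ssr4 (r = 0.91), Manf (r = 0.91) and Anxa5 (r = 0.91), of which Ssr4 and Manf belong to the secretory pathway. Muscle-like cells were at the other end, with 7.2 CPM of Timp1 over 31 cells.

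Timp2 and Mmp14 were high in several connective tissue classes and low in hypertrophic-like cells, while Timp3 was highest in osteoprogenitor-like cells and lay low in fibroblast-like as well as chondrocyte classes. Timp2 blocks MMP2 and also helps Mmp14's product to activate it. It stood at 231 and 232 CPM in tenocyte-like cells, both from 1 library, and at 219 to 241 CPM in cluster 14 (leading genes Otor and Pax1). Both classes lay apart from every class below them, and hypertrophic-like cells were at 36.2 to 76.4 CPM. Timp3, the matrix-bound inhibitor that also blocks ADAMTS enzymes, was at 155 to 310 CPM in the larger osteoprogenitor-like cluster (median 254), 127 to 331 in perichondrium-like cells (median 173), 7.28 to 93.7 in hypertrophic-like cells (median 85.5), 49.3 to 83.1 in fibroblast-like cells (median 66.4) and 23.5 to 43.0 in cluster 6 (leading genes Apoe and Tspo). In cells chosen by an Sp7 UMI Timp3 was only at 111 CPM, under the 119 CPM of all cells, while the osteoprogenitor-like clusters pooled to 249.5 CPM. Mmp14, whose product sits on the cell surface and activates pro-MMP2, was at 302 to 362 CPM in perichondrium-like cells, 289 and 291 in tenocyte-like cells and 67.5 to 121 in hypertrophic-like cells. In cells chosen by Aspn and Thbs2 UMIs it was at 276 CPM, against 334 CPM pooled over the perichondrium-like cluster and 215 CPM over all cells. The hypertrophic-like cells that led for Timp1 thus had the lowest median for both Mmp14 and Timp2, with ranges that overlapped those of proliferative-like chondrocytes. Over 20 clusters Mmp14 and Timp2 correlated with each other at r = 0.90 and both with Nfatc4 (r = 0.97 and 0.91).

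Mmp2, which digests denatured collagen and basement membrane, was found in every class. Its median by class ran from 58.7 CPM in proliferative-like chondrocytes to 134 CPM in perichondrium-like cells (71.8 to 175 over 4 pseudobulks) and 124 CPM in tenocyte-like cells (116 and 131). In cells chosen by Aspn and Thbs2 UMIs Mmp2 was only at 92.2 CPM, near the 83.3 CPM of all cells. The perichondrium-like cluster pooled to 141 CPM of Mmp2. All neighbouring classes in its order overlapped. Its 31 muscle-like cells pooled to 25.3 CPM.

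The 3 ADAMTS genes differed in the classes with the highest values, with all neighbouring classes overlapping. Adamts1 had its highest medians in joint interzone-like cells (51.6 to 147 CPM, median 104), hypertrophic-like cells (30.1 to 308, median 94.3) and proliferative-like chondrocytes (41.9 to 235, median 62.2) and was lowest in the larger osteoprogenitor-like cluster (0 to 23.2, median 9.72) and cluster 8 (2.64 to 11.3, median 6.99). The low-UMI cluster 16 stood at 288 CPM in its 1 pseudobulk of at least 10 cells, from 98 UMIs. Adamts5, the main aggrecan-cutting enzyme of adult cartilage, was scarce in cartilage here, with 22 of its 519 UMIs in the 830 cells of the chondrocyte class (0.886 CPM). Elsewhere it stood at 10.4 and 30.3 CPM in tenocyte-like cells, 2.32 to 56.4 in cluster 5 (leading genes Dcn and Tmeff2) and 10.8 to 16.9 in perichondrium-like cells. Adamts9, which cuts versican, was at 78.7 to 287 CPM in the larger osteoprogenitor-like cluster (median 174) and 88.7 to 222 in fibroblast-like cells (median 158), against 18.2 to 48.5 in hypertrophic-like and 8.04 to 34.8 in cluster 6. In cells chosen by an Sp7 UMI it was at 75.8 CPM, under the 87.6 CPM of all cells. In control cells alone the named class with the highest pooled level changed for each of the 3 genes: for Adamts1 from joint interzone-like to hypertrophic-like (148 CPM), for Adamts5 from tenocyte-like to perichondrium-like (16.7 CPM) and for Adamts9 from fibroblast-like to the larger osteoprogenitor-like cluster (174 CPM). Over the 9 genes other than Mmp13 and 5 classes, marker choice and clusters put 32 of 45 levels on the same side of the level of all cells. Cells with Sp7 and the osteoprogenitor-like clusters fell on opposite sides for Timp3, Adamts9, Mmp14, Timp2, Timp1 and Adamts5. Mmp14 was at 196 CPM with Sp7, 283 in the clusters and 215 in all cells. Timp2 was at 102, 153 and 124 CPM and Timp1 at 78.0, 34.6 and 42.4 CPM in that order. Mmp2, Mmp9 and Adamts1 kept their side. Adamts1 and Adamts5 are neighbours on chromosome 16 (85793827 to 85803113 and 85856173 to 85901828, both on the minus strand, GRCm38), yet their order over classes differed. Adamts9 shares 1381 and 424 exon bases with A730049H05Rik and Gm15737 on the opposite strand, and Timp3 shares 1733 with Syn3, so their counts rest on the strand that 3′ droplet libraries keep. Over 20 clusters, A730049H05Rik was among the 3 genes most correlated with Adamts9 (Pearson r = 0.86).

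**Figure D1:**
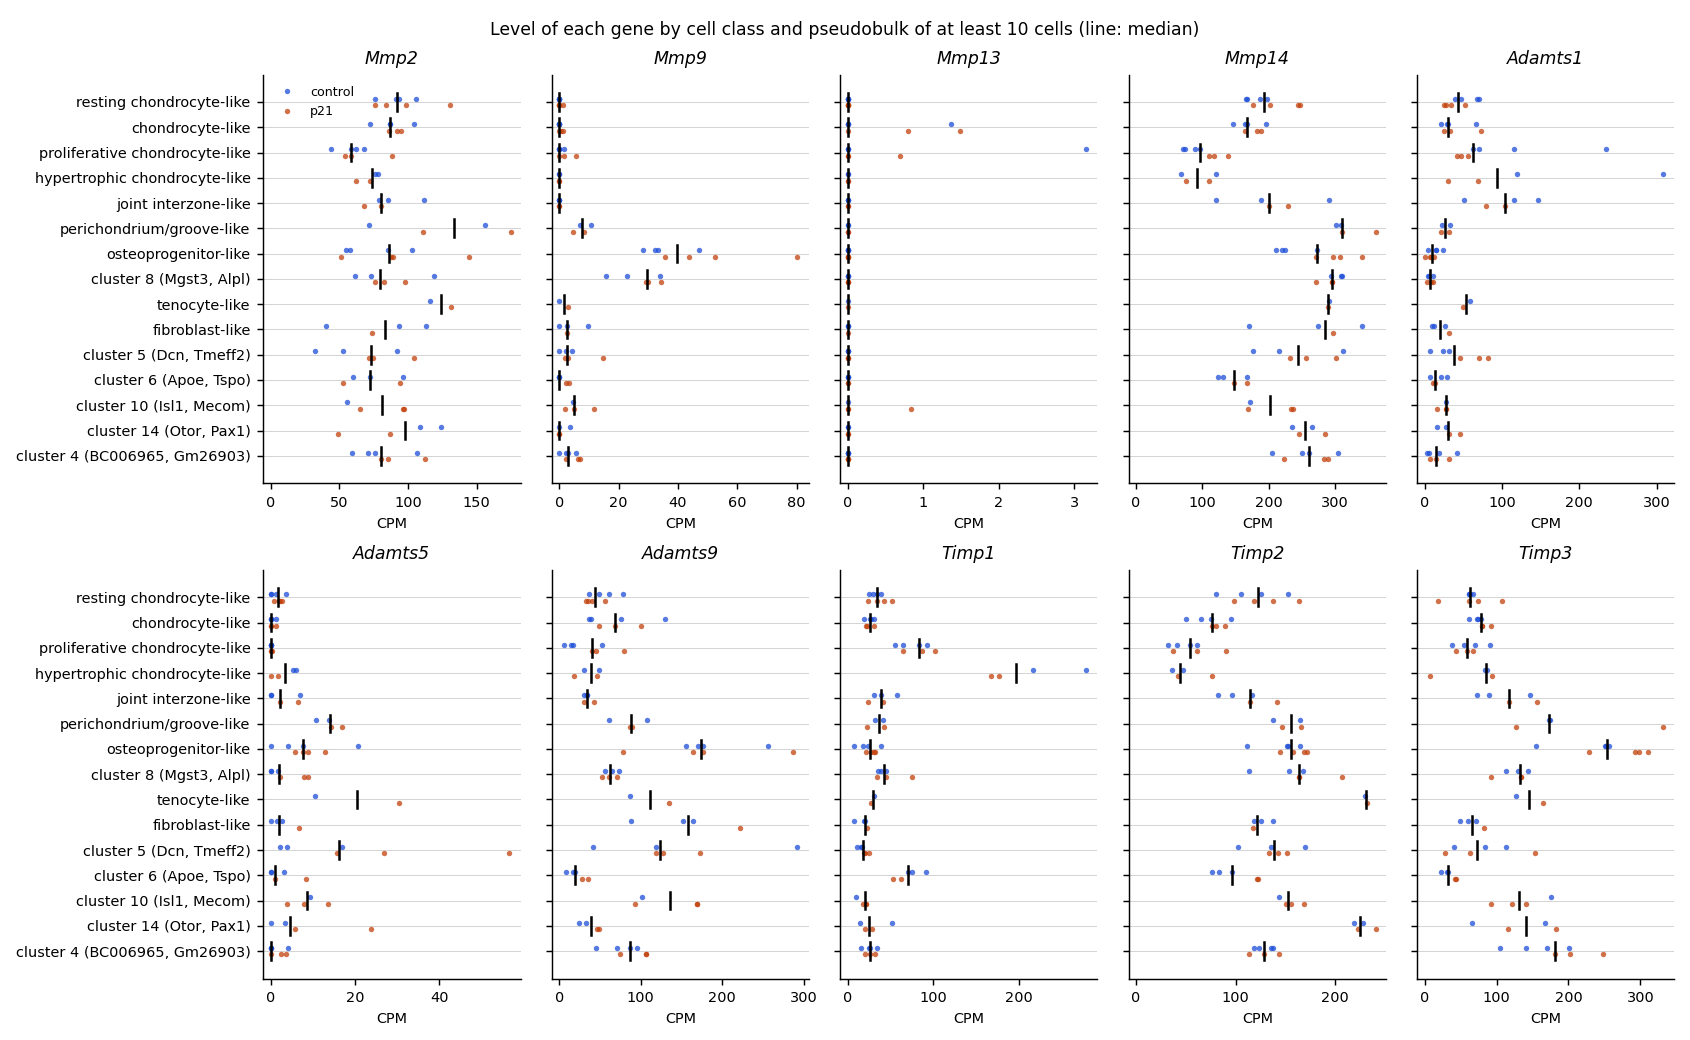
Level of each of the 10 genes (CPM, x axis, own scale per gene) in 15 cell classes (y axis). Each point is 1 pseudobulk of at least 10 cells, blue for control and orange for p21, and the line is the median over pseudobulks. Mmp9 is at 28.4 to 80.1 CPM in osteoprogenitor-like cells and 0 in hypertrophic-like cells, where Timp1 is at 167 to 279 CPM.

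In the order of class medians, 14 pairs of neighbours were compared for each gene by the ranges of their pseudobulks. For Mmp9, Timp1 and Timp2, 13 of 14 pairs overlapped and 1 was separate. For Mmp2, Mmp14, Timp3 and the 3 ADAMTS genes all 14 overlapped. Neighbours in an order sorted by median tend to overlap, and overlap of ranges is no test of a difference. The ranks of most neighbours are therefore not separated here.

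**Figure D2:**
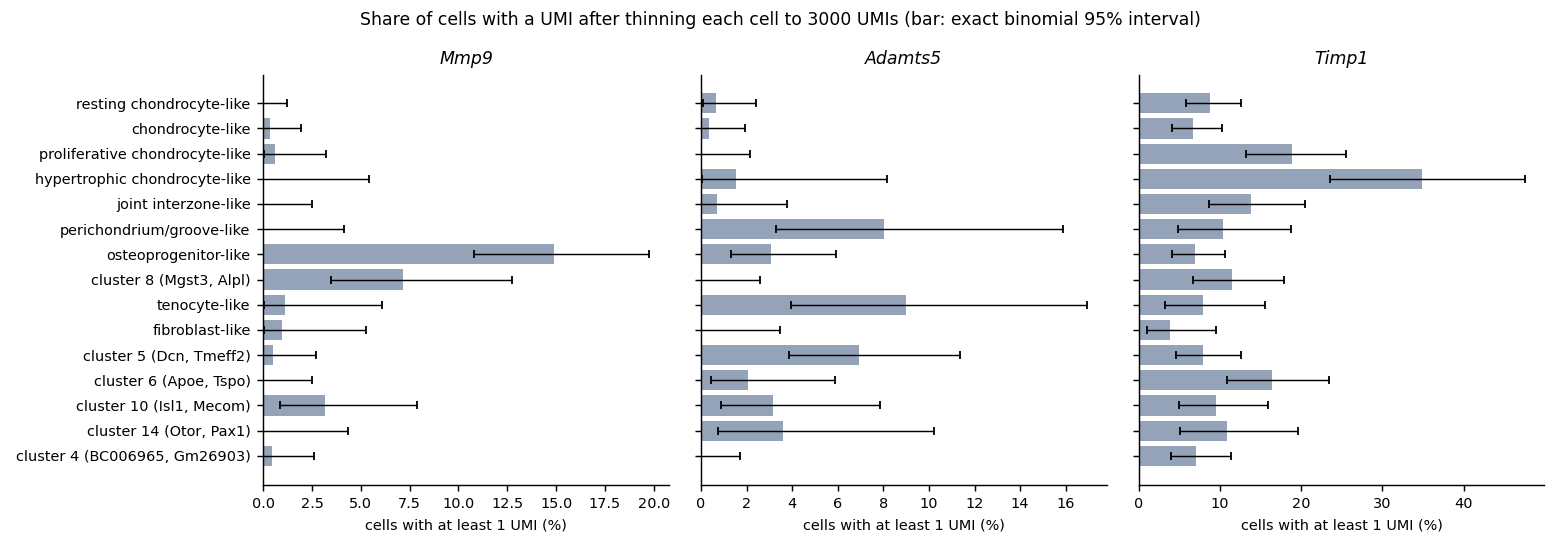
Share of cells with at least 1 UMI (%, x axis) of Mmp9, Adamts5 and Timp1 by cell class (y axis) after thinning each cell to 3000 UMIs. Bars are shares over the cells of a class with at least 3000 UMIs and black lines are exact binomial 95% intervals. Mmp9 is found mostly in osteoprogenitor-like cells and cluster 8, Adamts5 mostly in tenocyte-like, perichondrium-like and cluster 5 cells, and Timp1 reaches 34.8% in hypertrophic-like cells.

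To ask how the Gli1 lineage differed from the other cells of the limb, tdT+ and tdT- pseudobulks were compared with edgeR's quasi-likelihood test, with condition in the model and p-values adjusted by Benjamini-Hochberg over all genes tested (call at adjusted p under 0.05). Levels below are CPM scaled by trimmed mean of M values (TMM) and changes are log2 fold changes with their standard error (SE). Over all cells, 314 of 14533 genes were called (2.16%, of which 1.18% higher and 0.984% lower), and of the 9 genes tested here Mmp9 and Timp3 were higher and Adamts5 lower in tdT+. In 10.5% of all genes the 4 tdT+ and the 4 tdT- values did not overlap, as they did not for Mmp9, Timp3 and Timp1.

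Mmp9 stood at 8.99 (control) and 13.52 (p21) CPM in the tdT+ library of collection 1 and at 12.2 and 10.1 CPM in that of collection 2. In the tdT- libraries it stood at 3.92 and 4.70 CPM in collection 1 and 2.93 and 5.72 CPM in collection 2. Every tdT+ value was above every tdT- value, and Mmp9 was 1.33 ± 0.21 (log2, SE) higher in tdT+ (edgeR adjusted p = 0.0152). The 25 dissociation genes described below summed to 8247 to 9498 CPM in tdT+ and 9477 to 13473 CPM in tdT-, and their part in these results was not tested. Osteoprogenitor-like cells made up 13.6 to 27.0% of tdT+ cells and 3.6 to 11.2% of tdT- cells. Within those clusters Mmp9 was at 32.1, 38, 45.6 and 54.1 CPM in tdT+ and 24.7, 31.7, 43.2 and 73.0 CPM in tdT-, a change of -0.13 ± 0.27 (edgeR adjusted p = 1.00, 1 of 9388 genes called, 0.0107%). The other 6 genes tested there had changes from -0.26 (Adamts9) to 0.27 (Timp3), each with an adjusted p of 1.00. With those clusters left out, Mmp9 was 1.03 higher in the remaining tdT+ cells and was no longer called (adjusted p = 0.266). Without the tdT+ library of collection 1 the change was 1.33 with an adjusted p of 0.214, and only 1 gene was then called in all. The call was also lost without the tdT- library of collection 1 (adjusted p = 0.0559) or of collection 2 (0.0923), and without the p21 cells of the tdT+ library of collection 1 (0.0624).

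Timp3 was at 127, 128, 131 and 143 CPM in tdT+ and at 89.7, 91.3, 111 and 112 CPM in tdT-. The groups did not overlap, and Timp3 was 0.38 ± 0.07 higher in tdT+ (edgeR adjusted p = 0.0244). Without the osteoprogenitor-like clusters, where Timp3 was highest, the change was 0.14 (adjusted p = 0.535), and without the tdT+ library of collection 1 it was 0.35 (adjusted p = 0.322). Leaving out 1 pseudobulk at a time kept the call in 2 of 8 fits.

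Adamts5 was at 2.55, 3.08, 6.33 and 6.37 CPM in tdT+ and at 3.92, 6.64, 10.3 and 12.8 CPM in tdT-. The groups overlapped, and the p21 values were above the control values in both, but within each embryo sample the tdT- value was the higher in 4 of 4 pairs. Adamts5 was lower in tdT+, at -0.93 ± 0.20 (edgeR adjusted p = 0.0428). A single p21 cell of cluster 5 in the tdT- library of collection 2 held 63 of the 519 Adamts5 UMIs (12.1%, the next cell 12). Without that cell the change was -0.77 and the call was lost (adjusted p = 0.0836), as it was with a stricter sex call (0.0538), without hypertrophic-like cells (0.0521) and without condition in the model (0.249), and leaving out 1 pseudobulk at a time kept it in 1 of 8 fits.

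Timp1 was at 28.6, 29.3, 35.7 and 43.5 CPM in tdT+ and at 44.0, 45.4, 48.7 and 66.6 CPM in tdT-, with no overlap, and at -0.58 ± 0.16 it did not pass (edgeR adjusted p = 0.0994). Hypertrophic-like cells were 0 to 1.5% of tdT+ and 2.8 to 8.4% of tdT- cells, and without that cluster the Timp1 change was -0.42 (adjusted p = 0.128). The remaining genes did not pass either: Adamts9 at 0.47, Mmp14 at 0.21, Timp2 at 0.03, Mmp2 at -0.22 and Adamts1 at -0.34 (adjusted p from 0.122 to 0.926).

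**Figure D3:**
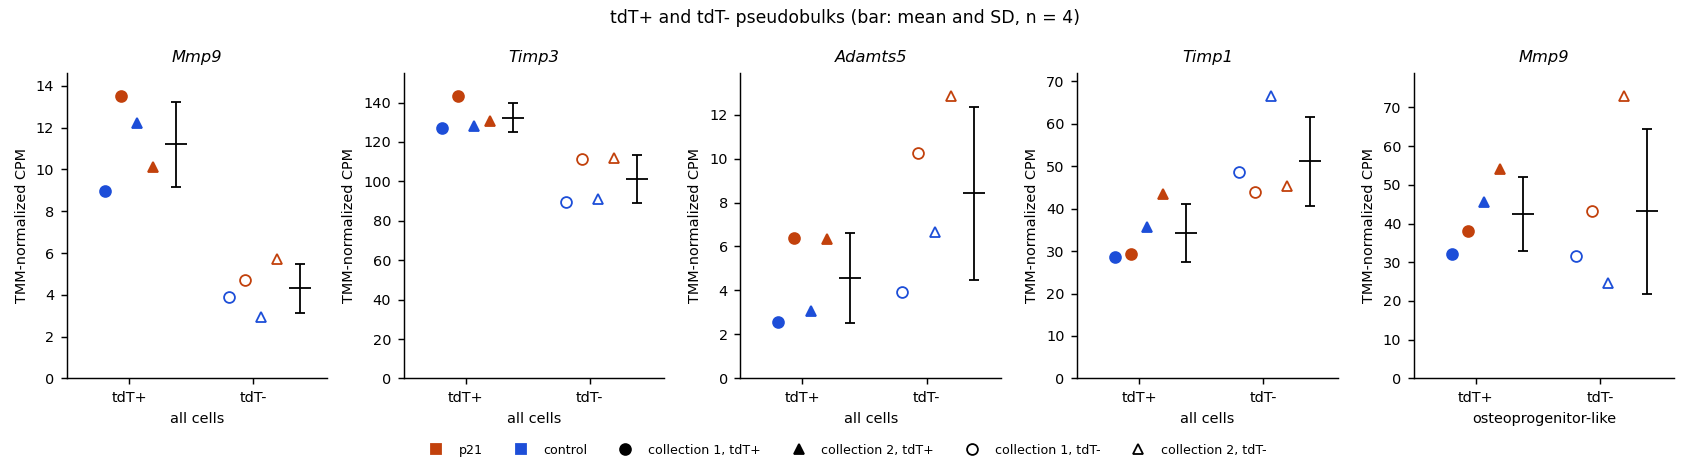
TMM-scaled CPM (y axis) of Mmp9, Timp3, Adamts5 and Timp1 over all cells and of Mmp9 in osteoprogenitor-like cells, by tdT fraction (x axis). Each point is 1 pseudobulk (orange p21, blue control, circles collection 1, triangles collection 2). The bar is the mean with its SD (n = 4 pseudobulks from 2 libraries). Mmp9 over all cells is 8.99 to 13.52 in tdT+ and 2.93 to 5.72 in tdT-, while inside the osteoprogenitor-like clusters the 2 fractions overlap.

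Outside the chondrocyte class, 140 of 13715 genes were called (1.02%, of which 0.423% higher and 0.598% lower), among them 2 of the 9 tested, Mmp9 higher by 1.04 ± 0.20 (edgeR adjusted p = 0.0412) and Adamts5 lower at -1.19 ± 0.19 (adjusted p = 0.0212). Adamts5 was at 3.42, 4.07, 8.28 and 9.16 CPM in tdT+ and 6.81, 11.0, 16.9 and 20.1 CPM in tdT- non-chondrocytes, and Mmp9 at 12.1, 14.2, 16.8 and 18.2 against 5.03, 7.19, 8.43 and 8.65. The Mmp9 groups did not overlap (7.69% of all genes there), and the Adamts5 groups did. Without the osteoprogenitor-like clusters Adamts5 stayed lower (-1.30, adjusted p = 0.0277) and Mmp9 did not pass (0.84, adjusted p = 0.496), and without the 1 cell rich in Adamts5 that gene had an adjusted p of 0.0517. Leaving out 1 pseudobulk at a time kept the Mmp9 call in 1 of 8 fits and the Adamts5 call in 4 of 8. With the embryo sample as a replicate block, 286 genes were called, the same 2 among the 9. Adamts1 was at 17.2, 20.6, 25.9 and 36.6 CPM in tdT+ and 31.1, 37.1, 44.8 and 47.5 CPM in tdT-, lower in 4 of 4 pairs at -0.68 ± 0.19, and did not pass (edgeR adjusted p = 0.145). Without the 9 clusters with chondrocyte markers and without the set-aside cells, which left 1202 cells, 265 genes were called, with Mmp9 at 1.00 (adjusted p = 0.0216), Adamts5 at -1.29 (0.0170) and also Adamts1 at -0.84 (0.0157). This fit was chosen after the data were seen and was not repeated without single pseudobulks or libraries. Of 26 alternatives to the fit with all 1937 cells, Adamts1 passed in 3, and in 0 of the 8 that left out 1 pseudobulk. The other 6 genes passed neither with all 1937 cells nor with the 1202. With all 1937 cells they ran from -0.31 (Timp1) and -0.27 (Mmp2) through -0.11 (Timp2), 0.16 (Mmp14) and 0.28 (Timp3) to 0.29 (Adamts9), with edgeR adjusted p from 0.25 to 0.60.

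In the chondrocyte class itself, 3 of 11382 genes were called (0.0264%) and none of the 7 tested. The largest changes were -0.53 ± 0.22 for Timp1, 0.47 ± 0.20 for Adamts9 and 0.39 ± 0.21 for Adamts1 (edgeR adjusted p = 0.989 for each), the other 4 lay from -0.19 (Mmp2) to 0.15 (Timp3), and Mmp2 was the 1 gene whose groups did not overlap (70.9 to 78.2 CPM in tdT+ and 79.2 to 88.4 CPM in tdT-, as for 2.49% of all genes there). With the replicate block 5 genes were called, none of them among the 7. An unadjusted p under 0.05 was found for 519 genes, and DESeq2 called 6.

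To ask what p21 in cartilage changed, p21 and control pseudobulks were compared with the tdT fraction in the model. In the chondrocyte class 77 of 11382 genes were called (0.677%, 0.545% lower), and Adamts1 was the 1 of the 7 tested, lower with p21. It stood at 51.9, 23.9, 36.5 and 39.3 CPM in the p21 chondrocytes of the tdT+ and tdT- libraries of collection 1 and then of collection 2, and at 62.1, 65.6, 121 and 72.1 CPM in the matching controls. The groups did not overlap, as for 6.65% of all genes there, and p21 was lower in 4 of 4 libraries. The change was -1.06 ± 0.21 (edgeR adjusted p = 0.0474).

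That call stood near the threshold. With the library as a replicate block the Adamts1 change was -1.076 with an adjusted p of 0.088, without each pseudobulk in turn it passed in 1 of 8 fits (adjusted p 0.0378 to 0.176), without the tdT+ library of collection 2, which holds the highest control value, it was -0.78 (adjusted p = 0.292), and with tdT+ and tdT- cells of an embryo sample summed, which leaves 2 samples against 2, the change was -0.97 (adjusted p = 0.161). It also missed the threshold with a stricter sex call (-1.05, adjusted p = 0.0577), without the tdT fraction in the model (-1.05, 0.0697), with the set-aside cells of its clusters included (-1.05, 0.0500) and with chondrocytes chosen by marker UMIs (-0.64, 0.212), the weakest change. Of 25 alternatives 7 passed. DESeq2 and limma-voom gave an adjusted p of 0.000622 and 0.0335. Hypertrophic-like cells, in which control Adamts1 was 119 and 308 CPM and p21 Adamts1 30.1 and 69.1 CPM, made up 3.5, 11.9, 6.0 and 8.7% of p21 chondrocytes and 0, 13.3, 1.6 and 19.6% of controls, in the order of libraries above. Without that cluster the change was -0.90 (adjusted p = 0.149). In proliferative-like chondrocytes Adamts1 was at 41.9 to 55.9 CPM in 3 p21 pseudobulks and at 62.2 to 235 CPM in 4 controls. The share of all genes with ranges apart in that cluster was not counted, and no test was run there. In resting-like chondrocytes the ranges overlapped (25.0 to 52.5 and 39.1 to 70.7 CPM), and in joint interzone-like cells they did too (78.9 and 104 against 51.6 to 147 CPM).

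Summed genes of the response to cell dissociation moved with the same groups: 25 listed genes stood at 11522 to 13302 CPM in p21 chondrocytes and at 14647 to 18086 CPM in controls, with 3 of 25 called lower (Klf6 at -0.82, Klf2 at -0.70 and Ier2 at -0.46) and a median change of -0.42 against -0.00 over all genes. Their part in the Adamts1 result was not tested.

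The other 6 genes tested in p21 chondrocytes did not pass. Mmp14 was at 140, 165, 171 and 185 CPM with p21 and 125, 134, 135 and 147 CPM in controls, higher in 4 of 4 libraries with overlapping groups (0.29 ± 0.10, edgeR adjusted p = 0.291). Timp1 was at 37.0, 53.4, 60.1 and 64.3 CPM with p21 and 37.6, 55.1, 57.5 and 104 CPM in controls (-0.19 ± 0.22, adjusted p = 0.815). The log2 fold changes of Timp2, Mmp2, Adamts9 and Timp3 were 0.27, 0.05, 0.05 and -0.05 (adjusted p from 0.647 to 0.963).

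**Figure D4:**
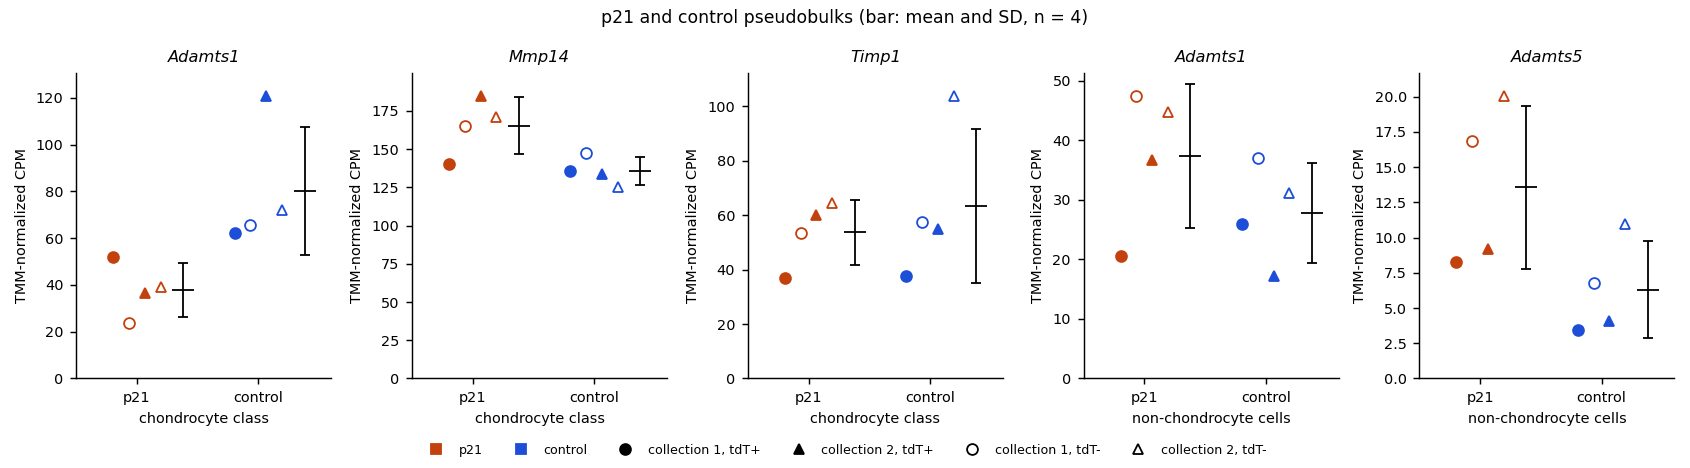
TMM-scaled CPM (y axis) of Adamts1, Mmp14 and Timp1 in the chondrocyte class and of Adamts1 and Adamts5 in non-chondrocyte cells, by condition (x axis). Points are pseudobulks (filled tdT+, open tdT-, circles collection 1, triangles collection 2) and bars are means with SD (n = 4). Adamts1 in chondrocytes is 23.9 to 51.9 with p21 and 62.1 to 121 in controls, and in non-chondrocyte cells its groups overlap.

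WPRE in tdT- non-chondrocyte cells was at 60.1 and 245 CPM with p21 and 92.7 and 71.6 CPM in controls. Clusters of few cells or low UMIs were 19.2% of the cells of the pseudobulk at 245 CPM, and their part in that level was not tested. In non-chondrocyte cells 1 of 13715 genes was called (0.00729%) and none of the 9 tested. Adamts1 was there at 20.6, 47.5, 36.6 and 44.8 CPM with p21 and 25.9, 37.1, 17.2 and 31.1 CPM in controls, a change of 0.43 ± 0.19 that did not pass (edgeR adjusted p = 0.79). Cluster 16, which had chondrocyte markers and came almost wholly from 1 library, held 98 of the 380 Adamts1 UMIs (25.8%) of the p21 cells in the tdT+ library of collection 2. The change was 0.30 without clusters of few cells or low UMIs, 0.17 without that library and 0.44 without all clusters with chondrocyte markers and the set-aside cells. The difference from the chondrocyte class was not tested. Adamts5 was at 8.28, 16.9, 9.16 and 20.1 CPM with p21 and 3.42, 6.81, 4.07 and 11.0 CPM in controls, higher in 4 of 4 libraries by 1.14 ± 0.19 and not called by edgeR (adjusted p = 0.422), while DESeq2 called it (adjusted p = 0.0238). Without the 1 cell rich in Adamts5 the change was 0.99 (edgeR adjusted p = 0.574). The other 7 genes lay from 0.05 (Timp1) to 0.27 (Mmp9 and Timp3), with adjusted p from 0.696 to 0.989.

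Over all cells, p21 against control gave 4 calls among 14533 genes (0.0275%), 1 with the library as a replicate block, and none of the 9. Adamts5 had the largest change of the 9, 1.14 ± 0.20 with an unadjusted p of 0.00016 and an edgeR adjusted p of 0.162 (DESeq2 0.00977, limma-voom 0.0922). It was 1.00 without the 1 cell rich in Adamts5 (adjusted p = 0.215). The other changes ran from -0.30 (Adamts1) to 0.33 (Mmp9), with adjusted p from 0.559 to 0.959. None of the 9 passed the test of a difference in the p21 effect between tdT+ and tdT- (interaction term, edgeR adjusted p = 1.00 for each, 0 of 14533 genes called, 568 with an unadjusted p under 0.05, and 6 called by DESeq2). In the chondrocyte class 3 of 11382 genes passed it (0.0264%) and none of the 7 tested, which lay from -0.52 (Timp2) to 0.53 (Timp1), with an adjusted p of 1.00 for each.

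In the osteoprogenitor-like clusters no gene was called (edgeR, 0 of 9388, 0%, 418 with an unadjusted p under 0.05, and no other tool was run). Mmp14 was at 294, 302, 337 and 340 CPM with p21 and 209, 211, 215 and 275 CPM in controls, with no overlap (3.06% of all genes there), a change of 0.46 ± 0.14 (edgeR adjusted p = 0.960). Mmp9 and Timp1 were higher with p21 in 4 of 4 libraries, by 0.53 ± 0.26 and 0.92 ± 0.37 (adjusted p = 0.960 for both). The other 4 tested lay from -0.08 (Adamts9) to 0.29 (Mmp2), with adjusted p from 0.960 to 1.00. With 2 p21 embryo samples these clusters gave 11 to 90 cells a pseudobulk.

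**Figure D5:**
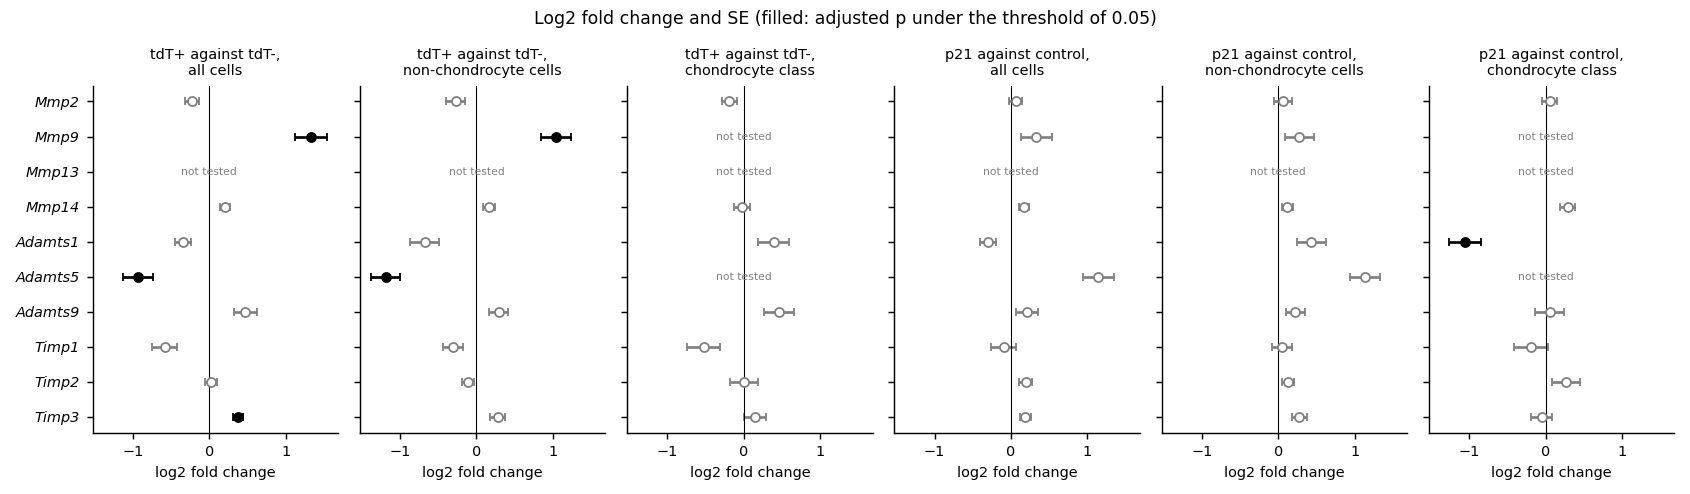
Log2 fold change with SE (x axis) of each gene (y axis) in tdT+ against tdT- and in p21 against control, over all cells, non-chondrocyte cells and the chondrocyte class. Filled points passed the edgeR test at adjusted p under 0.05, open points did not, and genes with too few UMIs are marked as not tested. The called changes are Mmp9 (1.33 and 1.04), Timp3 (0.38) and Adamts5 (-0.93 and -1.19) between tdT fractions and Adamts1 (-1.06) between p21 and control chondrocytes.

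Genes of the wider protease system were listed beside these 10. Of 40 other metalloproteinases, 32 were tested over all cells, and 2 were higher and none lower in tdT+, Adamts17 by 0.68 and Adam12 by 0.44. The list median was 0.15, against 0.03 for the 9 and -0.01 over all genes. Of 16 other proteases, 2 were lower in tdT+, Htra1, a secreted serine protease, at -1.36 and Prss35 at -0.72 (list median -0.04). Both were lower in non-chondrocyte cells too (-1.80 and -1.04), together with Ctss (-2.16), a cathepsin of macrophages. Without clusters with chondrocyte markers and set-aside cells, which include the 6 myeloid-like cells, Htra1 (-1.94) and Prss35 (-1.24) were still called and Ctss was not (-0.97, edgeR adjusted p = 0.323). Listed myeloid genes summed to 285 and 101 CPM in 2 of the tdT- pseudobulks there and to at most 14.7 in the other 6, and the value without set-aside cells stands above. Of 16 tested of 19 other inhibitors and uptake genes, 1 was higher in tdT+, Serpinf1 by 0.53. Among 22 tested of 23 matrix substrates, 7 were lower in tdT+, led by the hypertrophic collagen Col10a1 (-5.44) and Comp (-1.44) and including the cartilage genes Col2a1 (-0.73) and Matn3 (-0.95), and Fbn1 was higher by 0.55. Cells of the chondrocyte class were 22.7 to 25.3% of tdT+ and 32.1 to 43.0% of tdT- cells, and inside that class 0 of 22 substrates were called between the fractions (edgeR, list median -0.05, against 0.00 over all genes). Of 18 transcription factors, Runx2 (1.083) and Gli1 (0.55) were higher and Ets1 and Jund lower (-0.56 and -0.35). In non-chondrocyte cells Serpinf1 (0.42), Fbn1 (0.45), Runx2 (0.94) and Sp7 (1.02) were higher in tdT+. Col10a1 (-6.55), Comp (-1.89) and Jun (-0.58) were lower there. Without clusters with chondrocyte markers and set-aside cells, Serpinf1, Runx2 and Jun were still called, and Fbn1, Sp7 and Comp were not.

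With p21, no other metalloproteinase (20 tested), other protease (12) or inhibitor (14) was called in the chondrocyte class. Among its matrix substrates 2 of 22 were lower, Matn3 at -1.27 and Tnc, a glycoprotein of tendon and perichondrium, and Acan, the substrate of the ADAMTS genes, was not among them. Over all cells none of the genes of these lists was called with p21.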

How the data were processed

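The authors made the deposited UMI counts with Cell Ranger 7.2.0 on GRCm38 (mm10) with transgene features, per the labels. Barcodes with at least 1000 UMIs, 500 genes and at most 10% mitochondrial UMIs were kept, the top 5% of Scrublet scores were removed, and condition was assigned here from sex genes (at least 2 UMIs, 80% of 1 sex, thresholds set for this work), since the study mixed p21 and control cells of opposite sex in each library. Cells without a sex call were left out. Scrublet was run in scanpy 1.11.5. Cells were clustered with scikit-learn 1.9.0 and leidenalg 0.10.2 (2000 variable genes, 30 components, 15 neighbours, resolution 1, 23 clusters), leaving out 624 cell-cycle genes. After the clusters were seen, 19 endothelial-like and 6 myeloid-like cells were set aside from them (15 of the 19 from clusters of the chondrocyte class) and counted as non-chondrocyte. UMIs were summed by library and condition and tested with edgeR 4.0.16 (R 4.3.3, quasi-likelihood, TMM, filterByExpr, Benjamini-Hochberg), with DESeq2 1.42.0 and limma 3.58.1 as alternatives. The scripts were tested on simulated data. With planted changes, 9.60% of calls were false for p21 in the chondrocyte class and 9.50% for tdT in non-chondrocyte cells. In the other fits of that check 4.81 to 7.61% were false. Values are sums over cells, so p-values measure the spread between pseudobulks, which share embryos and libraries.

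The rule was to give all 10 genes that could be tested in every comparison, by value or range. Up to 5 called genes of each related list were added, by lowest p. The rule also named the 3 genes most alike over clusters, which are given for Mmp9 and Timp1. For Mmp14, Timp2 and Adamts9 only 1 of them is given, and for the other genes none. The genes and lists were chosen with earlier results of these data known, and the alternatives that leave out a cluster or cell, and the tests within osteoprogenitor-like cells, were chosen after seeing the data. tdT+ and tdT- cells of a collection and condition come from the same embryos, and their deviations correlated at 0.09 to 0.32 over all cells, while those of p21 and control cells of 1 library correlated at -0.02 to 0.29. Both pairings were fitted as a replicate block.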

Additional observations from a re-analysis of the deposited data

Results flagged for a closer look

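In 11 of 128 groups of 4 pseudobulks, 1 value stood apart by Dixon's criterion, which chance meets in about 1 group in 20. All values are TMM-scaled CPM. Over all cells, Timp1 in the p21 group was 29.3 in the tdT+ library of collection 1 and 43.5 to 45.4 in the others. In chondrocytes, control Adamts1 was 121 in the tdT+ library of collection 2 against 62.1 to 72.1, and without that pseudobulk p21 Adamts1 fell by 0.83 (edgeR adjusted p = 0.125). Among tdT+ chondrocytes, Mmp14 was 185 in p21 cells of collection 2 against 134 to 140, and Timp3 was 80.4 in p21 cells of collection 1 against 66.8 to 68.9.

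Outside the chondrocyte class, control Mmp14 was 269 in the tdT+ library of collection 2 against 220 to 226, and tdT- Adamts9 was 120 in p21 cells of collection 2 against 78.7 to 82.9. In p21 cells there, Timp2 was 160 in the tdT- library of collection 1 against 150.0 to 151, and Timp3 was 139 in the tdT- library of collection 2 against 162 to 166. In osteoprogenitor-like cells, tdT+ Mmp2 was 54.6 in controls of collection 1 against 88.1 to 93.97, control Mmp14 was 275 in the tdT+ library of collection 2 against 209 to 215, and p21 Timp3 was 177 in the tdT- library of collection 2 against 278 to 289.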

How the results depend on the processing

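Calls near the threshold and counts of calls moved with the processing, and the cause was not tested. DESeq2 called 650 genes between tdT fractions over all cells, 6 in chondrocytes and 330 outside them, and for p21 51, 157 and 11, and for the interaction 6 over all cells and 7 in chondrocytes. With no filter on low counts these were 1700, 152 and 1183 for tdT and 460, 465 and 321 for p21. With the replicate block the counts were 5 (tdT, chondrocytes), 286 (tdT, non-chondrocytes), 2 (tdT, osteoprogenitor-like) and 1 (p21, all cells), and beyond Adamts1 in p21 chondrocytes it changed no call of the 10 genes. A stricter sex call gave 1 (tdT, chondrocytes), 90 (tdT, non-chondrocytes) and 0 (p21, all and non-chondrocytes), and keeping high Scrublet scores gave 1 (tdT, chondrocytes). Classes by marker gate gave 9 (tdT) and 22 (p21) in chondrocytes. Summing the fractions gave 0, 18 and 0 for p21 in all cells, chondrocytes and non-chondrocytes, and leaving the fraction out of the model gave 0 in all cells and in non-chondrocytes. Without osteoprogenitor-like clusters the counts were 63 (tdT, all), 35 (tdT, non-chondrocytes) and 8 (p21, all). Without clusters with chondrocyte markers and set-aside cells it was 265 (tdT, non-chondrocytes). Leaving out 1 pseudobulk or library gave 1 to 849 (tdT, all), 0 to 4 (tdT, chondrocytes), 0 to 224 (tdT, non-chondrocytes), 0 to 2 (tdT, osteoprogenitor-like), 0 to 5 (p21, all), 1 to 66 (p21, chondrocytes) and 1 to 2 (p21, non-chondrocytes). The unthinned share of osteoprogenitor-like cells with Mmp9 was 49.4%.

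Only changes that passed no test turned sign. Between tdT fractions, Timp2 was -0.0021 over all cells and -0.035 in chondrocytes without hypertrophic-like cells, and in chondrocytes -0.0054 with DESeq2 and -0.0064 without condition in the model, where the gate gave 0.17 for Mmp14 and -0.0383 for Adamts1. With p21, Timp1 without hypertrophic-like cells was 0.0617 over all cells and 0.0833 in chondrocytes, Timp3 was 0.18 with the gate and 0.0387 without hypertrophic-like cells, and Adamts9 was -0.0036 with high Scrublet scores kept. Without osteoprogenitor-like clusters Mmp2 was -0.0017 and Timp1 -0.12 in p21 non-chondrocytes, and limma-voom gave -0.0795 for the Adamts5 interaction. Leaving out 1 pseudobulk or library gave these ranges for tdT: Timp2 -0.0369 to 0.0892 (all cells) and -0.29 to 0.23 (chondrocytes), Mmp14 -0.12 to 0.0507 (chondrocytes), and in osteoprogenitor-like cells Mmp14 -0.0698 to 0.0842, Mmp2 -0.40 to 0.0511, Mmp9 -0.31 to 0.27, Adamts9 -0.48 to 0.0308 and Timp1 -0.50 to 0.20. For p21 they were Mmp2 -0.0227 to 0.12 and Timp1 -0.28 to 0.0828 (all cells), Adamts9 -0.12 to 0.23, Timp1 -0.40 to 0.0786 and Timp3 -0.15 to 0.12 (chondrocytes), Mmp2 -0.0545 to 0.16 and Timp1 -0.0618 to 0.14 (non-chondrocytes), and Adamts9 -0.33 to 0.11 (osteoprogenitor-like). The planned p21 test within hypertrophic-like cells was not run, because only 2 pseudobulks per condition had 10 cells. With 2 embryo samples per condition and 10 Mmp13 UMIs, small changes and Mmp13 were beyond this depth.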
